A study of Mus musculus with 18 samples.

Results

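Rgs16 and 9 further genes of the regulator of G protein signalling (RGS) family were followed across livers taken at 3 days of an adeno-associated virus (AAV) experiment in mice. The 10 members, Rgs16, Rgs1, Rgs2, Rgs3, Rgs4, Rgs5, Rgs10, Rgs12, Rgs14 and Rgs19, were found by the gene symbol in the deposited annotation, out of 36230 symbols given to 1 gene each, and the array holds 21 genes whose symbol is Rgs and a number. Each member was measured by 1 transcript cluster, a set of probes along 1 transcribed locus. Liver RNA of 18 healthy adult males was measured, each animal on an array of its own (Affymetrix Mouse Transcriptome Array 1.0). The groups, of 3 arrays each, are HPNWT at day 1, day 2 and day 4 and EGFP at day 1, day 2 and day 4, all with AAV. The design text speaks of hepsin overexpressed in the liver alone. HPNWT is not spelled out in the labels, nor is the event that begins the count of days. The sources used here give no strain, promoter or virus dose.

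RGS proteins bind the active, GTP-loaded alpha subunits of heterotrimeric G proteins and speed GTP hydrolysis, which ends the signal of G protein-coupled receptors. Rgs16, Rgs1, Rgs2, Rgs3, Rgs4 and Rgs5 belong to the R4 subfamily of mostly small proteins acting on Gi and Gq, Rgs10, Rgs12 and Rgs14 to the R12 subfamily acting on Gi, and Rgs19 to the RZ subfamily. In mouse liver Rgs16 is known as a hepatocyte gene that changes with feeding state and time of day and responds to glucose through the transcription factor ChREBP. Rgs5 is known as a gene of pericytes and other mural cells of blood vessels.

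On the mouse genome 5 of the 10 members lie on chromosome 1, where Rgs5 and Rgs4 are neighbours and Rgs16 lies beside Rgs8. RefSeq start windows (GRCm38.p6) were available for 8 members. The 250 bases before the start are shown for Rgs16, the member chosen for its differences, and for Rgs5, Rgs4 and Rgs2, the R4 members that were highest in 1 liver. Rgs19, which was also highest in that liver, has 3 windows, which are not shown and hold none of the motifs searched. The Rgs16 window is chr1:153740103-153740352 on the plus strand, that of Rgs5 is chr1:169655251-169655500 on the plus strand, that of Rgs4 is chr1:169747643-169747892 on the minus strand, and that of Rgs2 is chr1:144004150-144004399 on the minus strand. Each reads 5′ to 3′ along its gene, and capitals mark matches to the motifs given next.
Rgs16: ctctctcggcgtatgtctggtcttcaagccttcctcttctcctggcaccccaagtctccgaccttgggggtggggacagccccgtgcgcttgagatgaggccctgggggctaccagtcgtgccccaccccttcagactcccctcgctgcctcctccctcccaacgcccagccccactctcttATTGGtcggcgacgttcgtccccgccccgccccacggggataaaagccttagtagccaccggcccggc
Rgs5: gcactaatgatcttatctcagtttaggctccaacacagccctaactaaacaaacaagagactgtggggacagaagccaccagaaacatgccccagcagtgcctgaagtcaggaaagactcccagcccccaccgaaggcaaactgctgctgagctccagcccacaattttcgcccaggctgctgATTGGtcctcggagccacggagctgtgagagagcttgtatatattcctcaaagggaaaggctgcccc
Rgs4: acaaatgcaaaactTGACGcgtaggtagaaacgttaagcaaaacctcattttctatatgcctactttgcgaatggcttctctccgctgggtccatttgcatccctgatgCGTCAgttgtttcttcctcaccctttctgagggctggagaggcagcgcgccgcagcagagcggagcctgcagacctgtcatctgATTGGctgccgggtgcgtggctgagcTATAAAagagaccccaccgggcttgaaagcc
Rgs2: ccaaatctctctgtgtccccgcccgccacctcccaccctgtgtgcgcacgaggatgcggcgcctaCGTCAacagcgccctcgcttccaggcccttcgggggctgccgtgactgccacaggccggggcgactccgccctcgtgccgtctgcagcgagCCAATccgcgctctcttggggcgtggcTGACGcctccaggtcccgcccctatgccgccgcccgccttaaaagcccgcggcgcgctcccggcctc

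Both strands were searched for 7 motifs. The CCAAT box (CCAAT, or ATTGG on the other strand) was found in the 4 windows shown and in no other member's. The windows shown were chosen after the levels were seen, so nothing is read from the motif they share. Its first base as printed lay 68 bases before the start in Rgs16, 67 in Rgs5, 57 in Rgs4 and 94 in Rgs2, and it occurred in 33.8% of all 32851 RefSeq windows of this length. The E-box CACGTG, the core of carbohydrate response elements, was in no member's window, against 6.02% of all windows. The shorter cAMP response element TGACG, which also lies inside the full element TGACGTCA, was found in Rgs2, Rgs4 and Rgs12 and in 17.8% of all windows. The full element was in no member's window and in 1.55% of all. The TATA box TATAAA was found in Rgs4 and Rgs3 (12.4% of all windows) and the AP-1 motif TGACTCA in Rgs12 (4.46%). The EGR1 motif GCGTGGGCG (0.536% of all windows) was in none of the members' windows. The GC content was 66.4% in the Rgs16 window, 53.6% in Rgs5, 53.6% in Rgs4 and 72.4% in Rgs2, beside a median of 52.4% over all windows. A match is a run of letters in the window and says nothing of binding.

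Levels are log2 values from robust multi-array averaging (RMA), and each gene is compared only with itself across arrays. The 95th percentile of 5222 negative-control probe sets averaged 6.16, and a level under it is called below the control level. Hpn, the gene of hepsin, averaged 8.26, 8.19 and 8.30 in HPNWT livers at day 1, 2 and 4, against 8.32, 8.27 and 8.19 in EGFP livers. At no day was it higher in every HPNWT liver, and at day 2 all 3 HPNWT livers were lower, so HPNWT livers below are livers so labelled, and every direction rests on that label. Whether the Hpn probes lie in the sequence carried by the virus was not tested. All 12 hepatocyte markers listed were above the control level. On principal component 1 every HPNWT array (-30.57 to -2.77) stood apart from every EGFP array (12.07 to 29.32), and the cause was not tested. On principal components 2 and 3, HPNWT day 4 replicate 3 and HPNWT day 1 replicate 1 lay farthest from the other arrays. The samples are bulk tissue, in which fewer cells of a type and less RNA per cell cannot be told apart.

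Rgs16 was chosen by its HPNWT minus EGFP differences on these same arrays, so its levels and differences are given as a description, with no test. Each SE and 95% interval below rests on 1 spread pooled over all 6 groups, not on that of the day's own livers. The Rgs16 SD ran from 0.14 in HPNWT day 4 to 1.66 in EGFP day 4, so the SE of 0.63 is not the spread of any 1 day. At day 1 Rgs16 had 9.31, 9.33 and 8.41 in HPNWT livers, against 7.29, 8.18 and 7.58 in EGFP livers. Every HPNWT liver was above every EGFP liver, and the closest values of the groups were 8.41 in HPNWT and 8.18 in EGFP. The difference HPNWT minus EGFP was 1.34 on the log2 scale (SE 0.63, 95% interval -0.005 to 2.68), a 2.52-fold higher level.

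At day 2 the 3 HPNWT livers had 10.06, 10.85 and 10.44, against 8.05, 8.77 and 10.37 in EGFP livers. The groups overlapped through EGFP replicate 3, whose Rgs16 level lay inside the HPNWT range. The difference was 1.38 (SE 0.63, 95% interval 0.04 to 2.72), a 2.61-fold higher level in HPNWT. Without EGFP replicate 3 it was 2.04, and without EGFP replicate 1 it was 0.88.

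At day 4 the HPNWT livers had 10.62, 10.43 and 10.34, against 8.99, 5.74 and 6.81 in EGFP livers. The HPNWT livers lay within 0.27 log2 units of each other, while the EGFP livers spanned 3.25, and 1 of them was below the control level. All HPNWT livers were above all EGFP livers, by 3.28 on average (SE 0.63, 95% interval 1.94 to 4.63), a 9.74-fold higher level. Leaving out single livers gave 2.56 (without EGFP replicate 2) to 4.19 (without EGFP replicate 1).

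**Figure D1:**
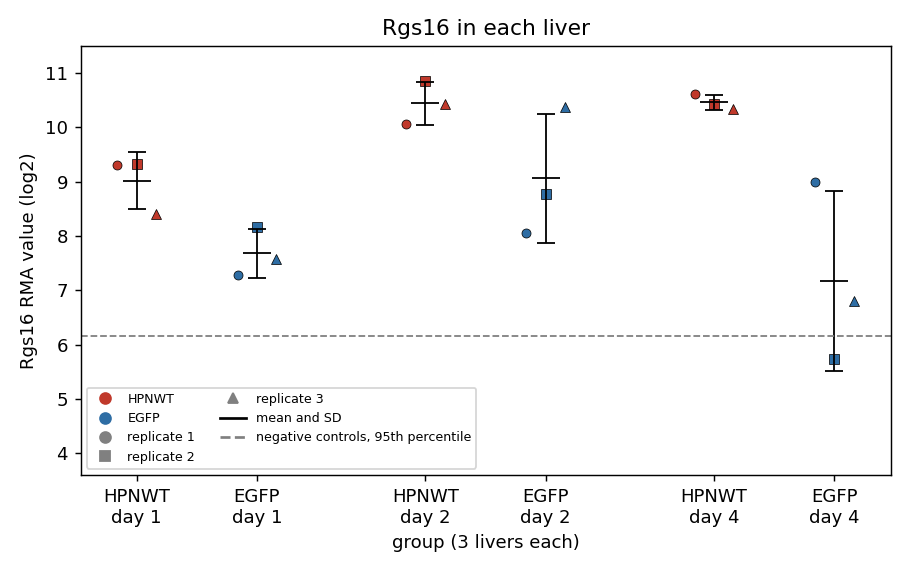
Rgs16 level (RMA value, log2) in each liver, with HPNWT left of EGFP at day 1, 2 and 4, bars at the mean and SD of 3 livers and a dashed line at the negative-control level of 6.16. HPNWT livers at day 4 sit between 10.34 and 10.62, above the EGFP livers of that day, which spread between 5.74 and 8.99.

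By group mean, Rgs16 stood at 10.46 ± 0.14 in HPNWT day 4, 10.45 ± 0.40 in HPNWT day 2, 9.07 ± 1.19 in EGFP day 2, 9.02 ± 0.53 in HPNWT day 1, 7.68 ± 0.45 in EGFP day 1 and 7.18 ± 1.66 in EGFP day 4 (SD, n = 3 each). Of neighbours in this order, HPNWT day 1 and EGFP day 1 alone did not overlap. HPNWT livers were 1.43 higher at day 2 than at day 1 (SE 0.63), and day 4 differed from day 2 by 0.02 (SE 0.63). EGFP livers were 1.38 higher at day 2 than at day 1 and -1.88 at day 4 relative to day 2 (SE 0.63 each). The HPNWT minus EGFP difference of day 4 exceeded that of day 2 by 1.901 (SE 0.90) and that of day 1 by 1.95 (SE 0.90), and the day 2 and day 1 differences stood 0.05 apart (SE 0.90).

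In the authors' deposited tables, whose group averages are on another scale with settings that the sources used here do not give, Rgs16 averaged 13.17 in HPNWT and 9.52 in the control at day 1. Their averages were 15.75 in HPNWT and 12.31 in the control at day 2, and 15.69 in HPNWT and 8.7 in the control at day 4. The authors' deposited fold changes were 12.57, 10.89 and 127.73 at day 1, 2 and 4. Rgs16 is in the authors' deposited lists of changed clusters at day 2 and day 4 and not at day 1, and no other member is in any of these lists.

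Rgs5 was the one other member with a mean above the control level. At day 1 it had 6.42, 6.72 and 6.43 in HPNWT livers, against 6.25, 6.81 and 6.56 in EGFP livers. The groups overlapped throughout their range, with a difference of -0.02 (SE 0.26). At day 2 Rgs5 had 6.37, 6.02 and 6.52 in HPNWT livers, against 6.92, 6.69 and 6.68 in EGFP livers. Every HPNWT liver was below every EGFP liver, with a difference of -0.46 (SE 0.26, 95% interval -1.01 to 0.09) and an adjusted p of 0.343 (limma, Benjamini-Hochberg over all clusters). At day 4 it had 6.68, 6.65 and 7.63 in HPNWT livers, against 6.37, 7.42 and 6.96 in EGFP livers, a difference of 0.07 (SE 0.26). The day 4 groups overlapped, and the difference was -0.25 without HPNWT replicate 3 and 0.32 without EGFP replicate 2.

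Rgs4, a regulator of Gi and Gq best known from brain and heart, was below the control level in every liver. At day 4 it had 3.32, 3.21 and 4.35 in HPNWT livers, against 2.96, 3.82 and 2.98 in EGFP livers. One liver of each group was high and the groups overlapped, with a difference of 0.38 (SE 0.25, 95% interval -0.16 to 0.91), which was 0.02 without HPNWT replicate 3. At day 1 and day 2 the differences were -0.06 and 0.01 (SE 0.25 each), with 95% intervals of -0.60 to 0.48 and -0.52 to 0.55.

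Rgs2, a regulator selective for Gq that lowers the response of vessels to constricting hormones, was also below the control level in every liver. At day 4 it had 3.94, 3.97 and 4.83 in HPNWT livers, against 4.01, 4.16 and 3.99 in EGFP livers. Apart from HPNWT replicate 3, both other HPNWT livers were below all EGFP livers, and the difference was 0.20 (SE 0.17, 95% interval -0.15 to 0.55) with that liver and -0.09 without it. The differences at day 1 and day 2 were -0.09 and -0.08 (SE 0.17 each).

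**Figure D2:**
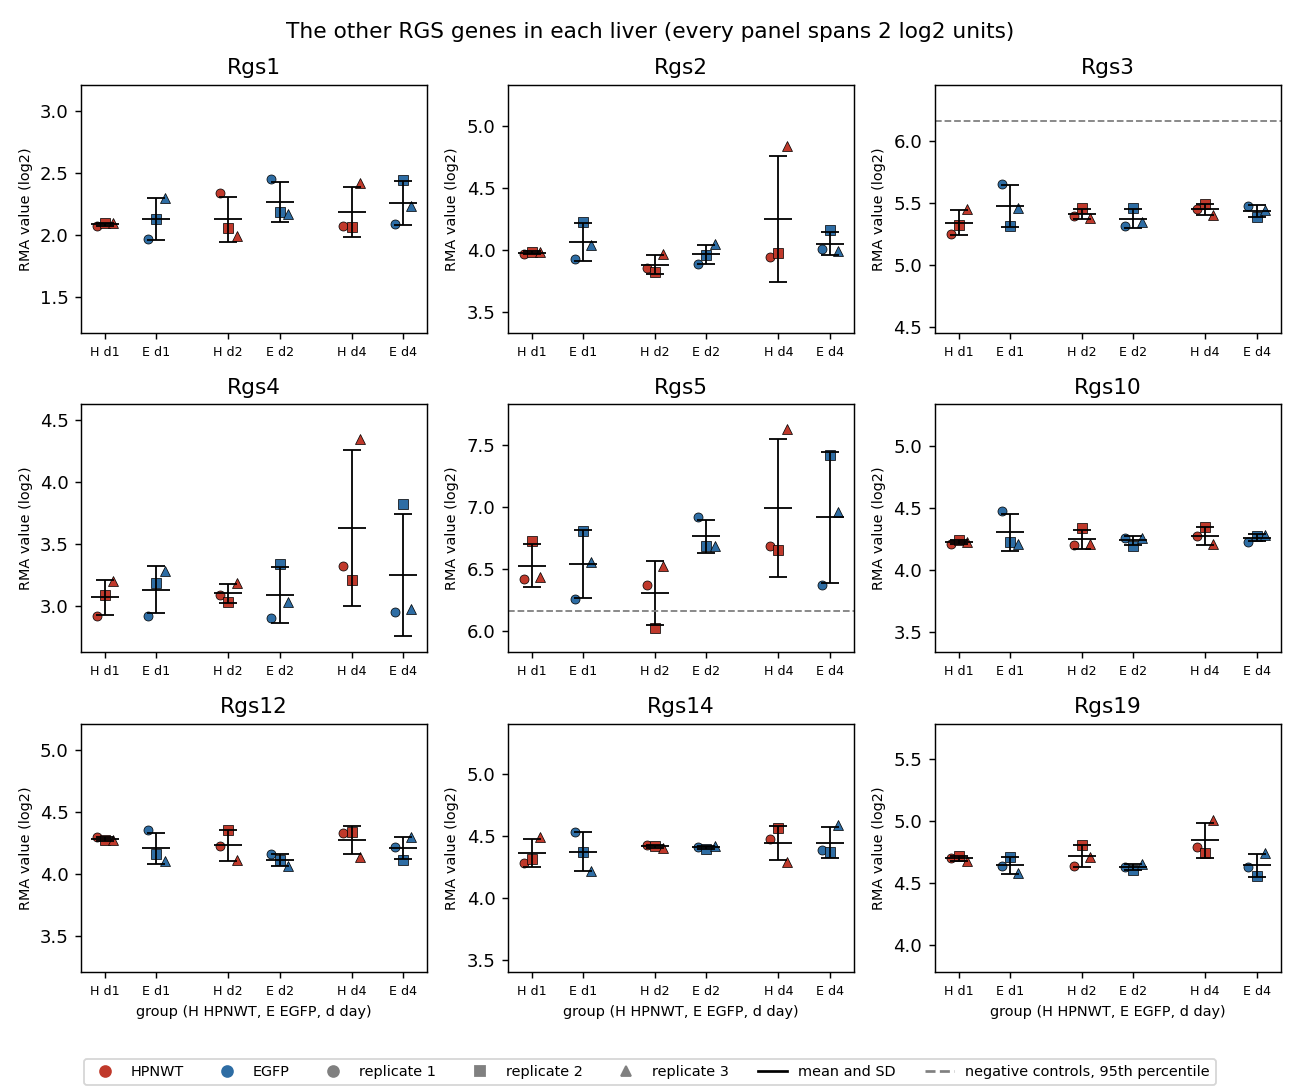
Levels (RMA value, log2) of the 9 other RGS genes in each liver, HPNWT (H) left of EGFP (E) at each day (d), with bars at the mean and SD of 3 livers. Every panel spans 2 log2 units, and Rgs5 alone crosses the dashed negative-control level of 6.16. HPNWT day 4 replicate 3 is the highest liver for Rgs2, Rgs4, Rgs5 and Rgs19.

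HPNWT day 4 replicate 3 had the highest level of the 18 arrays for Rgs2, Rgs4, Rgs5 and Rgs19, while its Rgs16 level was the sixth highest. Rgs2 had 4.83 in this liver, against a mean of 3.98 over the other 17 arrays. Rgs4 had 4.35, against 3.15, and Rgs5 had 7.63, against 6.62. Several marker lists of non-parenchymal cells were at their highest there too, and the neutrophil and monocyte list (3.32, beside 3.21 to 3.45 in the other arrays) was not. The 14 stellate and mural cell markers other than Rgs5, 9 of them below the control level (Des, Hgf, Pdgfrb, Acta2, Tagln, Cspg4, Notch3, Myh11 and Col3a1), averaged 6.57 in this liver, beside 5.85 to 6.09 in the other 17. The 12 endothelial markers, with Tie1 below the control level, averaged 7.73 there, beside 6.98 to 7.29. The 12 macrophage markers, with Timd4 and Adgre1 below the control level, averaged 7.40 there, barely past the range of 6.81 to 7.39 in the other arrays, and the 12 hepatocyte markers had their lowest mean there, 11.94, beside 11.96 to 12.16. The part of these cells in the Rgs2, Rgs4 and Rgs5 levels was not tested.

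**Figure D3:**
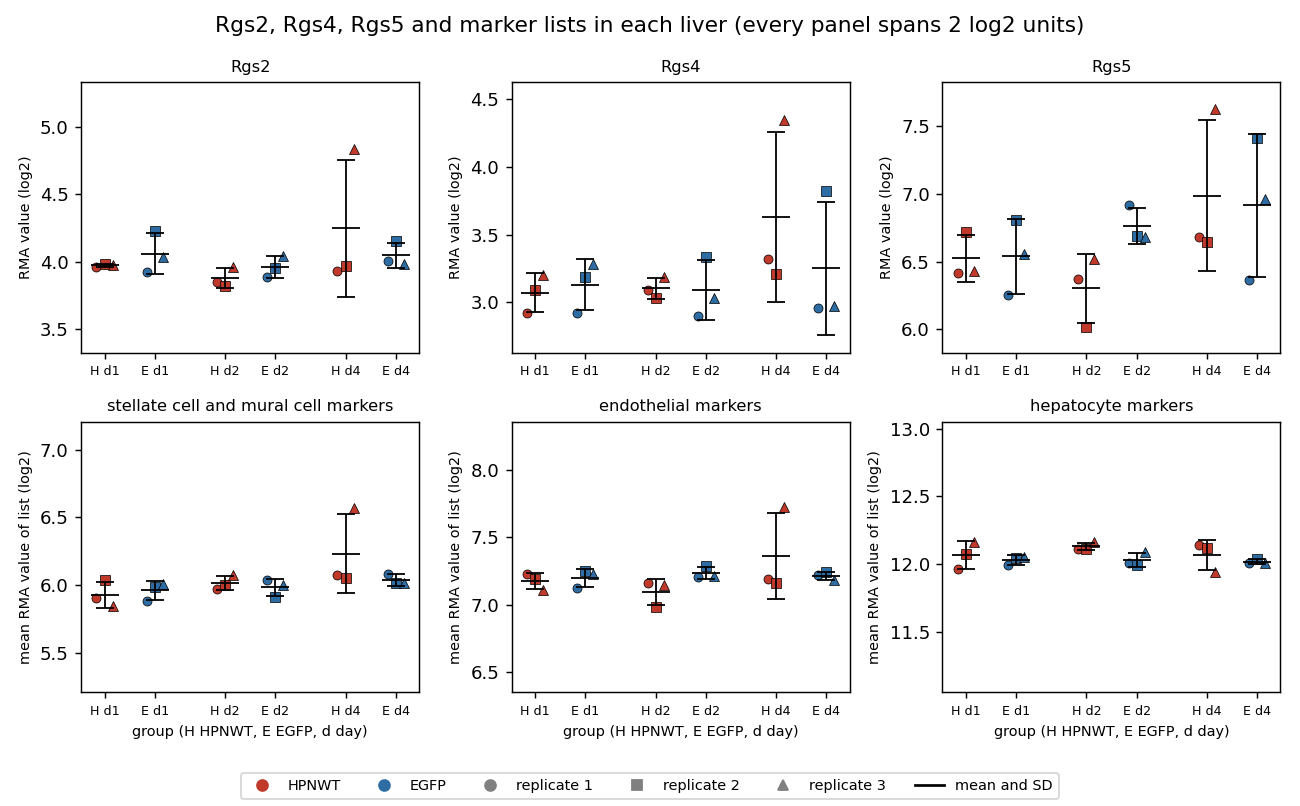
Levels (log2) of Rgs2, Rgs4 and Rgs5 and the mean level of 3 marker lists in each liver, HPNWT (H) left of EGFP (E) at each day (d), with bars at the mean and SD of 3 livers. Every panel spans 2 log2 units. HPNWT day 4 replicate 3 is the highest liver in the Rgs2, Rgs4, Rgs5, stellate and mural, and endothelial panels and the lowest in the hepatocyte panel.

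In summed level, the log2 of the summed linear values, the stellate and mural list ranged over 10.15 to 10.36 in HPNWT and 10.17 to 10.42 in EGFP livers at day 1, 10.22 to 10.38 in HPNWT and 10.27 to 10.43 in EGFP livers at day 2, and 10.32 to 10.90 in HPNWT and 10.26 to 10.48 in EGFP livers at day 4. At day 2, where Rgs5 was lower in every HPNWT liver, the list's mean level was 5.97, 5.998 and 6.07 in HPNWT livers, against 6.04, 5.92 and 5.998 in EGFP livers, which overlapped. EGFP day 4 replicate 2, the second highest liver for both Rgs5 (7.42) and Rgs4 (3.82), had a stellate and mural list mean of 6.01, within 0.08 of both other EGFP livers of that day.

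Across the 18 arrays Rgs2 and Rgs4 correlated at Pearson r = 0.84, Rgs4 and Rgs5 at 0.77 and Rgs2 and Rgs5 at 0.76. Without HPNWT day 4 replicate 3 these values were 0.49, 0.58 and 0.61 over 17 arrays. Rgs1 and Rgs5 correlated at 0.70, and Rgs3 and Rgs10, both below the control level, at 0.67. Rgs16 had r between -0.36 (with Rgs1) and 0.56 (with Rgs19). Arrays share group, day and scaling, so these values only describe the data.

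The remaining 6 members were below the control level in every liver. Rgs19, which acts on Gi-class subunits and binds the adaptor GIPC, had 4.79, 4.739 and 5.004 in HPNWT livers at day 4, against 4.63, 4.56 and 4.738 in EGFP livers. Every HPNWT liver was above every EGFP liver, though the lowest HPNWT value and the highest EGFP value were 0.001 apart. The difference was 0.20 (SE 0.08, 95% interval 0.04 to 0.36), with an adjusted p of 0.234 (limma), and it was 0.12 without HPNWT replicate 3. It was 0.06 at day 1 and 0.09 at day 2 (SE 0.08 each).

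Rgs1, known from lymphocytes, ranged over 1.96 to 2.45 in all livers, with differences of -0.04, -0.14 and -0.07 at day 1, 2 and 4 (SE 0.12 each). All 16 measured lymphocyte markers, Cd3e, Cd79a and Ms4a1 among them, were below the control level too. Rgs3, which acts on Gi and Gq, ranged over 5.25 to 5.65, with differences of -0.13, 0.04 and 0.02 (SE 0.08 each). For neither gene did the groups separate at any day.

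Rgs10, the smallest R12 protein and known from macrophages and microglia, had differences of -0.08, 0.01 and 0.01 at day 1, 2 and 4 (SE 0.07 each). Rgs12 and Rgs14 carry, besides the RGS domain, a GoLoco motif that holds Gi in its inactive form. The Rgs12 differences were 0.08, 0.12 and 0.06 (SE 0.08 each) and those of Rgs14 were -0.01, 0.01 and -0.01 (SE 0.09 each). The groups overlapped for all 3 genes at all 3 days. The 95% interval of Rgs14 at day 1 ran from -0.21 to 0.18, and its width was nearly the same at the other days.

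**Figure D4:**
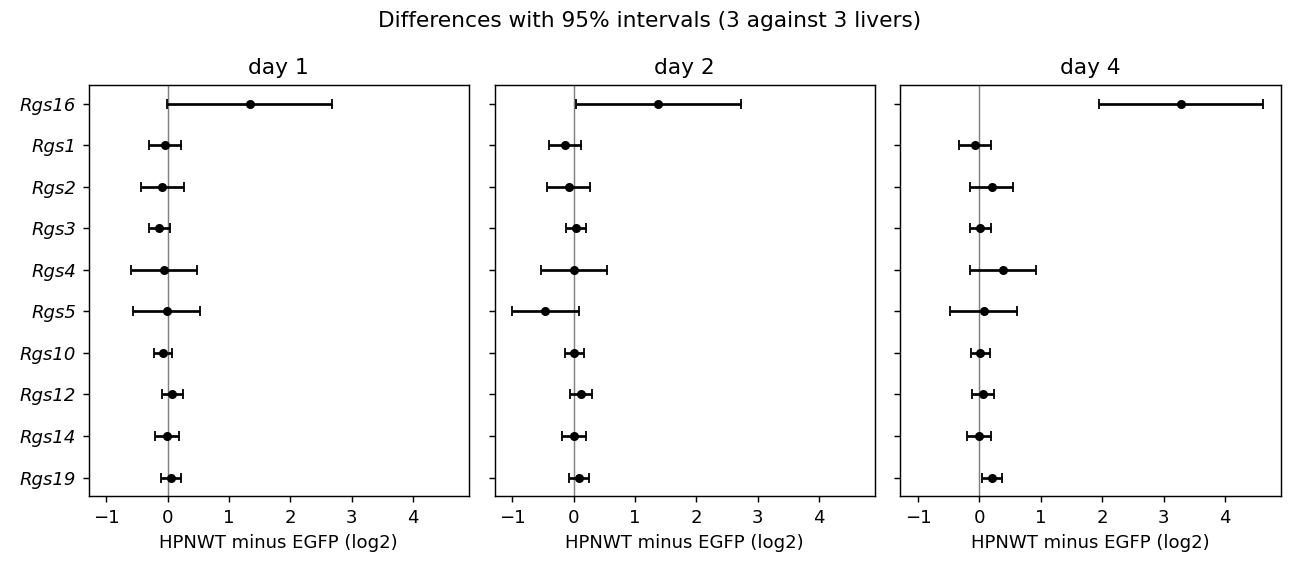
Difference HPNWT minus EGFP (log2) for the 10 RGS genes at day 1, 2 and 4, with 95% intervals from the fit over all 18 arrays. Rgs16 stands at 1.34, 1.38 and 3.28, and the 27 differences of the other members lie between -0.46 and 0.38.

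Of the 27 differences of the 9 other members, 26 had a 95% interval that included 0, that of Rgs19 at day 4 being the exception, and 20 had an interval inside ±0.5. Rgs16 was chosen on these differences and is left out of the following counts. At day 1, 0 of the 9 other members were called at an adjusted p under 0.05 in limma, with 4.59% of all 40161 clusters called (2.97% higher and 1.62% lower in HPNWT), and 0 had an unadjusted p under 0.05, against 15.8% of all clusters. At day 2, 0 were called, with 5.67% of clusters called (2.16% higher and 3.51% lower), and 0 had an unadjusted p under 0.05, with 19.9% of clusters. At day 4, 0 were called, with 2.21% of clusters called (1.54% higher and 0.67% lower), and 1 (Rgs19) had an unadjusted p under 0.05, with 12.2% of clusters, a share near that of the members. With Rgs16 included, the median difference of the 10 members was -0.03, 0.01 and 0.07 at day 1, 2 and 4, beside 0.01, 0.05 and 0.01 over all clusters.

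The HPNWT and EGFP livers did not overlap for 0 of the 9 other members at day 1, with 18.3% of all clusters not overlapping (10% higher and 8.21% lower in HPNWT). At day 2 it was 1 member (Rgs5, lower), with 34.3% of clusters (21.2% higher and 13.1% lower). At day 4 it was 1 (Rgs19, higher), with 15.6% of clusters (9.91% higher and 5.7% lower). For differences between days, 0 of the 9 passed for day 2 against day 1, with 0% of clusters called, 0 for day 4 against day 2, with 0.00498%, and 0 for day 4 against day 1, with 0.0946%. At an unadjusted p under 0.05 all 3 counts were 0, beside 5.47%, 5.95% and 5.72% of all clusters. Across the 3 days 0 of the 9 were called in HPNWT livers, with 0.64% of clusters called, and 0 in EGFP livers, with 0% called. At an unadjusted p under 0.05 the count was 1 in HPNWT (Rgs5), beside 9.28% of clusters, and 0 in EGFP, beside 4.04%.

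None of the 12 other RGS genes measured, from Rgs6 to Rgsl1, was called at any day or had a mean above the control level, and their differences ran from -0.09 to 0.14. Rgs8, the neighbour of Rgs16, had 4.32, 4.38 and 3.996 in HPNWT livers at day 4, against 4.23, 4.14 and 4.35 in EGFP livers. These groups overlapped. At day 2 every HPNWT liver (4.26 to 4.32) was above every EGFP liver (4.18 to 4.23), and at day 1 they overlapped. The day 2 groups also stood apart in this direction for Rgs6, Rgs7, Rgs9, Rgs13 and Rgs20, and for 21.2% of all clusters. The Rgs8 differences were -0.06, 0.09 and -0.01 at day 1, 2 and 4 (SE 0.10 each), with an adjusted p of 0.651 at day 2 (limma). Of 17 measured genes for proteins that bind RGS proteins or carry an RGS-like domain, such as Axin1 and the receptor kinases, none was called at any day.

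Among 16 G protein alpha subunit genes, those of the Gi and Gq classes included, 3 rose and 0 fell at day 1. At day 2, 2 rose and 0 fell, and none was called at day 4. Beside these and the list counts below, 4.59%, 5.67% and 2.21% of all clusters were called at day 1, 2 and 4. In a fit of only the clusters above the control level, 20.2%, 19.8% and 6.57% were called. No list count was tested against these shares. Of the alpha subunit genes, 7 were above the control level. Gnat1, the transducin alpha subunit of rod photoreceptors, had 7.37, 7.40 and 7.18 in HPNWT livers at day 1, against 6.27, 5.62 and 5.81 in EGFP livers. The groups stood apart, and Gnat1 rose by 1.42 (SE 0.21, adjusted p = 0.000849, limma). At day 2 it had 7.21, 7.06 and 7.32 in HPNWT livers, against 5.94, 5.82 and 5.76 in EGFP livers, a rise of 1.36 (adjusted p = 0.00125, limma). The EGFP means of Gnat1 at day 1 and day 2, 5.90 and 5.84, were below the control level, so both rises start from below it. At day 4 Gnat1 had 6.89, 6.98 and 6.50 in HPNWT livers, against 6.13, 6.94 and 5.95 in EGFP livers, which overlapped. Gnat2, its cone counterpart, was below the control level on average and rose by 0.55 at day 1 and 0.44 at day 2 (SE 0.10 each). Gna11, a Gq-class subunit, rose by 0.40 at day 1 (SE 0.10, adjusted p = 0.0291, limma), a call lost under 7 of 27 alternative settings. The median difference of the list was 0.02, 0.09 and 0.04 at the 3 days.

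None of 15 beta and gamma subunit genes was called at any day. Of 27 genes for effectors and second messengers, Prkar1a, a regulatory subunit of protein kinase A, rose by 0.47 at day 1 (SE 0.07, adjusted p = 0.000941, limma). Pde3b, which degrades cAMP, fell by 0.39 (SE 0.09, adjusted p = 0.0158, limma), a call lost under 5 of 27 settings. No gene of the list was called at day 2 or day 4.

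Of 49 measured G protein-coupled receptors, 10 were above the control level. Called were 2 higher at day 1, 2 higher and 1 lower at day 2, and 1 higher at day 4. Of all clusters, 4.59%, 5.67% and 2.21% were called at these days. Gprc5c, an orphan receptor, had 7.69, 7.46 and 7.39 in HPNWT livers at day 1, against 6.94, 6.84 and 7.04 in EGFP livers. It was higher in every HPNWT liver at each day and rose by 0.58, 0.52 and 0.57 at day 1, 2 and 4 (SE 0.11 each, adjusted p = 0.00772, 0.0133 and 0.0107, limma). Avpr1a, the vasopressin receptor of hepatocytes, rose by 0.94 at day 1 (SE 0.24, adjusted p = 0.0334, limma), a call lost under 6 of 27 settings, and its difference was 0.61 without EGFP day 1 replicate 1. Sstr2, a somatostatin receptor, was below the control level in every liver and rose by 0.80 at day 2 (SE 0.19, adjusted p = 0.0181, limma), a call lost under 5 of 26 settings. Its difference was 0.66 at day 1 and 0.70 at day 4, without overlap of the groups and without a call. Gcgr, the glucagon receptor, fell by 0.42 at day 2 (SE 0.12, adjusted p = 0.0426, limma), a call lost under 15 of 27 settings.

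Of 24 genes of the ChREBP list, which holds the factor and genes that respond to carbohydrate, 5 rose and 1 fell at day 1, 2 rose and 2 fell at day 2, and 1 rose and 1 fell at day 4. Of all clusters, 4.59%, 5.67% and 2.21% were called at these days. Of the list, 21 genes were above the control level, and in the fit of such clusters alone 20.2%, 19.8% and 6.57% were called. Mlxipl, which encodes ChREBP, had 8.79, 8.82 and 8.67 in HPNWT livers at day 1, against 9.40, 9.62 and 9.71 in EGFP livers. It was lower in every HPNWT liver at day 1 and day 2, and fell by 0.82 at day 1 (SE 0.16, adjusted p = 0.00611, limma) and by 0.69 at day 2 (SE 0.16, adjusted p = 0.0162, limma). At day 4 the groups overlapped, HPNWT replicate 3 (9.60) being above all 3 EGFP livers (9.38 to 9.53), and the difference was -0.37 (adjusted p = 0.322, limma). Mlx, the partner of ChREBP, rose by 0.61 at day 1 (SE 0.10, adjusted p = 0.0021, limma). Acaca, which makes malonyl-CoA for fatty acid synthesis, rose by 0.65, 0.75 and 0.64 at day 1, 2 and 4 (SE 0.13 each), and Fasn, the fatty acid synthase, rose by 1.06 at day 1 (SE 0.25, adjusted p = 0.0233, limma) and by 0.94 at day 2 (SE 0.25, adjusted p = 0.0368, limma), the call at day 2 being lost under 8 of 27 settings. G6pc, the last enzyme of glucose release, fell by 2.27 at day 4 (SE 0.57, adjusted p = 0.0496, limma), a call lost under 19 of 27 settings. G6pc was also called at day 2, with a difference of -2.12 (SE 0.57, adjusted p = 0.0388, limma) and no overlap of the groups. At day 1 its difference was -1.85 (SE 0.57), with overlapping groups and no call. The median difference of the list was 0.08, 0.22 and 0.27 at day 1, 2 and 4.

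Of 15 fasting and feeding genes, Pck1, the enzyme that commits carbon to glucose synthesis, fell by 0.79 at day 1 (SE 0.20, adjusted p = 0.0355, limma), a call lost under 8 of 27 settings. No gene of the list was called at day 2 or day 4. The sources used here do not give feeding state or time of day at collection, and their part in the Rgs16 level was not tested.

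Markers of liver cell types were counted in the same way, beside 4.59%, 5.67% and 2.21% of all clusters called at day 1, 2 and 4. Of 12 macrophage markers, Slc40a1 fell by 0.65 at day 2 (SE 0.16, adjusted p = 0.0282, limma), a call lost under 7 of 27 settings, and the list's median difference was -0.24, -0.25 and -0.06 at the 3 days. All 12 neutrophil and monocyte markers were below the control level on average, and Ly6c2 rose by 0.71 at day 4 (SE 0.15, adjusted p = 0.0178, limma). The median difference of that list at day 4 was -0.014. In the stellate and mural list Hgf fell by 0.70 at day 2 (SE 0.15, adjusted p = 0.0133, limma). Reln rose by 0.48 at day 2 (SE 0.13, adjusted p = 0.0353, limma), a call lost under 8 of 27 settings, and by 0.74 at day 4 (SE 0.13, adjusted p = 0.00351, limma). The median difference of the stellate and mural list was 0.055 at day 2 and 0.174 at day 4. None of the 12 endothelial markers was called. Among the other lists, Cd4 of the lymphocytes, below the control level, fell by 0.45 at day 1 (a call lost under 8 of 26 settings). The median difference of the lymphocyte list at day 1 was 0.055, the other way. Sox9 of the bile duct cells rose by 0.93 at day 2 (list median 0.135). Apoa1 of the hepatocytes rose by 0.30 at day 1 and 0.36 at day 2 (list medians 0.042 and 0.127). The part of these cells in the Rgs16 level was not tested. Of the calls chosen from the lists by rank of p, those of Gnat1, Prkar1a, Gprc5c and Mlxipl at day 1 held under every setting, and each of the others was lost under at least 1.

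The genes whose levels followed Rgs16 most closely were sought among 5595 named genes with a mean over all 18 arrays above the control level. They were ranked by Pearson r over these arrays, as a description. The 8 highest were Spp2 (0.85), a phosphoprotein secreted by the liver, Slc25a32 (0.83), the mitochondrial folate carrier, Necap1 (0.83), a protein of clathrin-mediated endocytosis, Vnn3 (0.82), of the pantetheinase family, Reln (0.81), an extracellular matrix glycoprotein, Dazap1 (0.81), an RNA-binding protein, Kctd20 (0.81) and Slc20a1 (0.81), a phosphate transporter. Spp2 kept r between 0.81 and 0.93 when single arrays were left out, and its r within groups was 0.68. Reln had the highest r within groups of the 8, at 0.79. Dazap1 had 0.65 after repeated quantile normalization.

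Spp2 had 7.34, 7.36 and 7.47 in HPNWT livers at day 4, against 7.01, 6.68 and 6.81 in EGFP livers, and the groups did not overlap. Nothing is read from this, because Spp2 was chosen by its correlation with Rgs16, which was chosen on the group differences. Of all clusters, 15.6% did not overlap at day 4. The Spp2 mean was 7.12, 7.34 and 7.39 in HPNWT livers at day 1, 2 and 4, against 7.01, 6.95 and 6.83 in EGFP livers. Slc20a1 averaged 6.48, 6.65 and 7.25 in HPNWT livers at the same days, against 5.95, 5.96 and 5.86 in EGFP livers. These EGFP means were below the control level, so Slc20a1 passed the filter through its HPNWT livers, and nothing is read from its differences.

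The 4 lowest correlations were those of Ces1f (-0.83), a carboxylesterase, Alas2 (-0.83), which makes the first intermediate of heme in red cell precursors, Csad (-0.82), of taurine synthesis, and Aox1 (-0.80), an aldehyde oxidase. Csad averaged 7.81, 5.56 and 6.60 in HPNWT livers at day 1, 2 and 4, against 9.05, 8.28 and 9.24 in EGFP livers, and its r within groups was -0.24. The HPNWT mean of Csad at day 2 was below the control level. Alas2 averaged 8.29, 8.19 and 7.97 in HPNWT livers, against 8.51, 8.50 and 8.57 in EGFP livers, with an r within groups of -0.68.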

How the data were processed

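Liver RNA of 18 mice in 6 groups of 3 was measured on 1-colour arrays. The authors deposited log2 expression values that the labels credit to RMA by the Transcriptome Analysis Console. The sources used here give neither its version nor a genome build. The deposited comparison tables, per the file headers, give gene symbols, log2 group averages, a signed fold change, which is a score for the present purpose, and p-values. Of 72688 rows, 40161 clusters carry a symbol, and 3590 of these carry several and were not named.

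All clusters with a symbol were fitted with lmFit and eBayes of limma 3.58.1 (R 4.3.3, statmod 1.5.0), with 6 group means over 18 arrays, no further scaling, filter or covariate, and 2-sided tests. P-values were adjusted by Benjamini-Hochberg over these clusters, and calls are those under 0.05. The p-values measure the spread between arrays of different animals, and the number of arrays limits the precision. A symbol was represented by its cluster with the highest mean. The members and the gene lists were chosen with earlier results of these data known. Named were all members, up to 3 called genes per list and day with the smallest p, and the 8 highest and 4 lowest correlations with Rgs16. Hpn, Rgs8 and the RGS genes named beside it at day 2 were named outside this rule, after their values were seen. So were the day 1 change of Fasn and the further days of G6pc and Sstr2. Genes were given no p adjusted over a list. Arrays correlated at 0.982 to 0.998, and 0 pairs were identical. On simulated data for the day 1 comparison with 40161 clusters, the fit recovered 87 of 100 changes of 1 log2 unit and 98 of 100 of 2, with 14 false calls. Alternatives were other scalings, a filter on dim clusters, a replicate block, the 6 arrays of 1 day, array weights, a trended robust prior, a negative-control covariate, the mean of all clusters of a symbol, and leaving out each array. The sources used here name no batch.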

Additional observations from a re-analysis of the deposited data

How the results depend on the processing

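The Rgs16 difference kept its sign under every alternative run at every day. Nothing is read from this, because Rgs16 was chosen on these differences. At day 1 and day 4 the groups did not overlap, so leaving out 1 array could not reverse the sign. The replicate block, the 6 arrays of 1 day and the trended robust prior leave the difference unchanged by design. The Rgs16 difference was 1.101 at day 1, 1.59 at day 2 and 3.03 at day 4 with array quality weights. It was 1.45, 1.63 and 3.36 with the negative-control median of each array as covariate. With single arrays left out it ran from 1.14 to 1.64 at day 1, 0.88 to 2.04 at day 2 and 2.56 to 4.19 at day 4. With only the 6 arrays of day 4 it was 3.28, as in the fit over all arrays. Only the estimate of its spread, with the degrees of freedom, and the adjustment over clusters differed between these fits. The number of members past the threshold was 0 with the 6 arrays of day 4, against 1 over all arrays. That 1 is Rgs16, chosen on the same differences, so nothing is read from either count. With the replicate block the Rgs16 differences were 1.34, 1.38 and 3.28. Same-numbered arrays of the groups correlated in their deviations at -0.25 to 0.11, so the numbers were not taken as pairs.

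Small differences of members below or near the control level changed sign, and the cause was not tested. With the negative-control covariate day 1 gave 0.02 for Rgs1, 0.088 for Rgs2, 0.28 for Rgs4, 0.12 for Rgs5 and -0.013 for Rgs12. Day 2 gave 0.30 for Rgs2, -0.16 for Rgs10, -0.073 for Rgs12 and -0.17 for Rgs14, and day 4 gave -0.041 for Rgs10 and -0.004 for Rgs12. The negative-control median was 3.04, 3.04 and 3.06 in HPNWT livers at day 1, 2 and 4, against 3.20, 3.41 and 3.18 in EGFP livers. Median centring gave 0.012 for Rgs5 and 0.015 for Rgs14 at day 1. At day 2 it gave -0.012 for Rgs3, -0.037 for Rgs4, -0.039 for Rgs10 and -0.041 for Rgs14, and at day 4 it gave 0.022 for Rgs14. Quantile normalization gave 0.017 for Rgs14 at day 1, -0.042 for Rgs4, -0.039 for Rgs10 and -0.043 for Rgs14 at day 2, and -0.003 for Rgs3 and 0.011 for Rgs14 at day 4. Array weights gave -0.01 for Rgs4 at day 2, and -0.058 for Rgs2, -0.12 for Rgs5 and 0.087 for Rgs14 at day 4.

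With single arrays left out, day 1 ran from -0.125 to 0.042 for Rgs1, -0.165 to 0.017 for Rgs4, -0.16 to 0.12 for Rgs5, -0.12 to 0.007 for Rgs10 and -0.091 to 0.068 for Rgs14. Day 2 ran from -0.081 to 0.14 for Rgs4 and -0.034 to 0.036 for Rgs10. Day 4 ran from -0.19 to 0.024 for Rgs1, -0.094 to 0.355 for Rgs2, -0.01 to 0.039 for Rgs3, -0.25 to 0.32 for Rgs5, -0.022 to 0.049 for Rgs10 and -0.065 to 0.071 for Rgs14.

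The share of all clusters called ran from 1.8% to 20.2% at day 1, 0.217% to 20.6% at day 2 and 0.371% to 6.57% at day 4 over the settings. At day 2, 869 clusters were higher and 1408 lower in HPNWT, against 413 and 1309 after median centring and 71 and 16 with the negative-control covariate. With HPNWT day 4 replicate 3 left out, day 4 had 542 higher and 438 lower, against 620 and 269 with it. The filter on dim clusters leaves Rgs16 and Rgs5 alone of the members.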
